A study of Mus musculus with 12 samples.

Results

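The proximal tubule reclaims most of the filtered load of the nephron and also acts as a metabolic organ. Its cells make glucose, methylate and break down amino acids, make the precursor of creatine, activate and inactivate vitamin D and conjugate or oxidise foreign compounds. Most of these enzymes are switched on late in nephron maturation, and the nuclear receptor Hnf4a is known as a regulator of that programme in the tubule. The genes described here are 40 such enzymes and regulators, chosen by gene symbol from a fixed list, of 36186 genes in the count table. They comprise the regulator Hnf4a, 6 genes of gluconeogenesis and sugar metabolism grouped with Mogat2, an enzyme of lipid synthesis, 12 of amino acid, glycine and creatine metabolism, 4 of the tryptophan and kynurenine pathway, 2 of vitamin D metabolism, 13 of detoxification and the androgen-regulated gene Kap. All 40 were found, and 39 passed the filter on low counts in the comparison of double mutant with wild type kidneys. The exception was Hpd, the tyrosine pathway dioxygenase, which did not exceed 0.459 CPM in any library. CPM stands for counts per 1000000 counts of the library, scaled across the 12 libraries.

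RNA-seq was carried out on whole kidneys of E18.5 mouse embryos on a mixed background, with 3 libraries in each of 4 genotypes. Beside the wild type, one genotype was Hoxa9,10,11-/- together with HoxC9,10,11+/- (below Hoxa-/- Hoxc+/-), the reciprocal one was Hoxa9,10,11+/- together with HoxC9,10,11-/- (below Hoxa+/- Hoxc-/-), and in the double mutant (below Hoxa-/- Hoxc-/-) both Hoxa9,10,11-/- and HoxC9,10,11-/- were present. Both sets of mutant alleles are frameshift alleles of adjacent genes, so that transcripts of the targeted genes are still counted and do not check the labels. The summed level of the 6 targeted genes was 208 to 236 CPM in double mutant and 257 to 335 CPM in wild type kidneys. The study's text gives the sequenced double mutants as having kept at least one wild type copy of Hoxa11 and describes the genotype without any as lacking kidneys at this age, whereas the labels give Hoxa9,10,11-/-. The name Hoxa-/- Hoxc-/- therefore follows the labels only, and the double mutant kidneys may have carried wild type Hoxa11. Each library is named below by its genotype and the number in its label, and those of the Hoxa+/- Hoxc-/- genotype also by the AhCk of their label. Total counts ran from 28616878 to 47067926 per library, and the lowest total belonged to Hoxa-/- Hoxc+/- library 20. The 3 Hoxa+/- Hoxc-/- libraries came from a sequencing run of their own, so that run and genotype cannot be told apart for them. Xist, the transcript of the inactive X chromosome, stood at 60.1 to 336 CPM in 5 mutant libraries and at 0.138 CPM or less in the other 7, among them all 3 wild type libraries. The numbers mark separate embryos only as far as the labels say, and p-values set the group difference against the spread between these libraries.

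For comparison, 14 other proximal tubule genes, transporters and brush border proteins that are not among the members, were read beside them. Detecting these genes in whole kidneys does not show which cells express a given member. All 14 were detected, with a summed level of 1359 to 3626 CPM in the wild type libraries. Slc34a1, the sodium phosphate cotransporter of the brush border, reached 760, 368 and 266 CPM in wild type libraries 30, 37 and 55. Per length of exon, the most abundant member in wild type kidneys was Kap, with a mean of 461 CPM per kilobase. Fbp1 was next, followed by Aadat at 107 and Ass1 at 96.3 CPM per kilobase. At the other end, Hpd at 0.0552 and Kmo at 0.0576 CPM per kilobase were close to the limit of detection. Kmo, the kynurenine monooxygenase, ranged from 0.0386 to 0.734 CPM, and 3 counts correspond to 0.0614 to 0.116 CPM in these libraries. In whole kidneys, fewer proximal tubule cells and less RNA per cell cannot be told apart.

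Promoter windows of 300 bases, 250 before and 50 from the start site on, were taken from RefSeq (GRCm38.p6) and were matched by symbol for 35 of the 40 members. They are shown for the members that held letters of a site of the tubule regulator HNF4 and for one shared promoter. The letters CAAAGTCCA, an HNF4-type site, searched on both strands, occurred in the windows of Agxt2, Pipox and Aadat, and in 0.475% of all 32851 windows. TATAAA occurred in the windows of 8 members and in 13.6% of all windows. The 35 members had 42 windows in all, of which 4 held the HNF4-type letters and 9 held TATAAA. These letters were settled on after several versions had been looked at, and a match describes the sequence and is not evidence of binding. In the first 3 windows the capitals mark these letters on either strand. Agxt2, a mitochondrial aminotransferase (chr15:10358283-10358582, plus strand), Pipox, the peroxisomal sarcosine and pipecolate oxidase (chr11:77893823-77894122, minus strand) and Aadat, the aminoadipate and kynurenine aminotransferase (chr8:60505874-60506173, plus strand) read as follows.
Agxt2: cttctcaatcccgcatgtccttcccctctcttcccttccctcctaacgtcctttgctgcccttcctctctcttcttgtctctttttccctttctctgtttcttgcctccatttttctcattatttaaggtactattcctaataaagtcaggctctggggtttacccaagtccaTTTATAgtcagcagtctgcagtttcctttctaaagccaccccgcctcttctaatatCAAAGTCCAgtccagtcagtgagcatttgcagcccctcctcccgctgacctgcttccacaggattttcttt
Pipox: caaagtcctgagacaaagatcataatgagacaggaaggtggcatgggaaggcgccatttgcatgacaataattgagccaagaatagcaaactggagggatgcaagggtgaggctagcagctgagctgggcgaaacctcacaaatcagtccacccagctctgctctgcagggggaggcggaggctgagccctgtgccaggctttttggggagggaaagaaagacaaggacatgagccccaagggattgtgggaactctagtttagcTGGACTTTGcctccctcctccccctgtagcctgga
Aadat: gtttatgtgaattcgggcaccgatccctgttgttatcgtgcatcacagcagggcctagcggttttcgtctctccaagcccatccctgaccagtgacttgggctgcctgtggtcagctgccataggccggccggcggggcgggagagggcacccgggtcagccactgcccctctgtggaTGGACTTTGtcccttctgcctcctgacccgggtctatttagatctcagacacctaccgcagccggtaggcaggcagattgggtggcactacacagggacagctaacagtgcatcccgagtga
The HNF4-type letters began 21 bases before the start site in Agxt2, 72 before it in Aadat and 15 after it in Pipox.

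Bhmt2, which methylates homocysteine, and Dmgdh, which demethylates the dimethylglycine left by the related betaine reaction, lie head to head on chromosome 13 with 133 bases between their annotated ends. The window of Bhmt2 (chr13:93674253-93674552, minus strand) shared 233 bases with that of Dmgdh, marked in capitals.
Bhmt2: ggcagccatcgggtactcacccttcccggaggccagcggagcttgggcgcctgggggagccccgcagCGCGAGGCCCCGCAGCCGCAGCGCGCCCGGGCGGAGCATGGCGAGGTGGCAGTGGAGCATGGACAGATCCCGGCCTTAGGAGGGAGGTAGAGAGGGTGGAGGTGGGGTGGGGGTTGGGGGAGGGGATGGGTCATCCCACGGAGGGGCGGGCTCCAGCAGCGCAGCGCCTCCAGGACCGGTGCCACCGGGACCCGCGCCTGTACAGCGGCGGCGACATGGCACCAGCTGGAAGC
Bhmt2 averaged 23.7 ± 14.4 CPM in the wild type (SD, n = 3), where library 30 was the highest, and stood at 46.0, 59.5 and 35.5 CPM in double mutant libraries 24, 27 and 29. Dmgdh stood at 22.7, 11.3 and 6.88 CPM in wild type libraries 30, 37 and 55, and at 23.0, 31.3 and 16.6 CPM in double mutant libraries 24, 27 and 29. Both were highest in double mutant library 27 and lowest, at 6.95 and 2.74 CPM, in Hoxa-/- Hoxc+/- library 20. Further neighbours among the members were Acsm1, Acsm2 and Acsm3 on chromosome 7, Fmo1 and Fmo2 on chromosome 1, and Glyat and Keg1 on chromosome 19. How reads from stretches that such related genes share were counted in the deposited table was not tested, so their counts are uncertain to that extent.

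Libraries of one genotype differed widely for most members. In wild type kidneys, library 30 was the highest of the 3 for 36 of 40 members, against 38.8% of all genes tested. Its level was at least 2 times the mean of the other 2 wild type libraries for 22 of 40 members, against 2.65% of all genes tested. The ratio reached 10.5 for Rdh19, a retinol dehydrogenase of the short-chain family, 4.63 for G6pc, the glucose-6-phosphatase of the last step of gluconeogenesis, and 3.98 for Fmo2, a flavin monooxygenase. In the Hoxa-/- Hoxc+/- group, library 20 was the lowest of all 12 libraries for 31 of 40 members, against 29.4% of all genes tested. Rdh19 was 1.20 CPM in that library and 89.4 CPM in library 33 of the same genotype, a ratio of 74.6. G6pc differed by a ratio of 25.0 and Fbp1, the fructose bisphosphatase of gluconeogenesis, by a ratio of 23.1 between the same libraries.

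**Figure D1:**
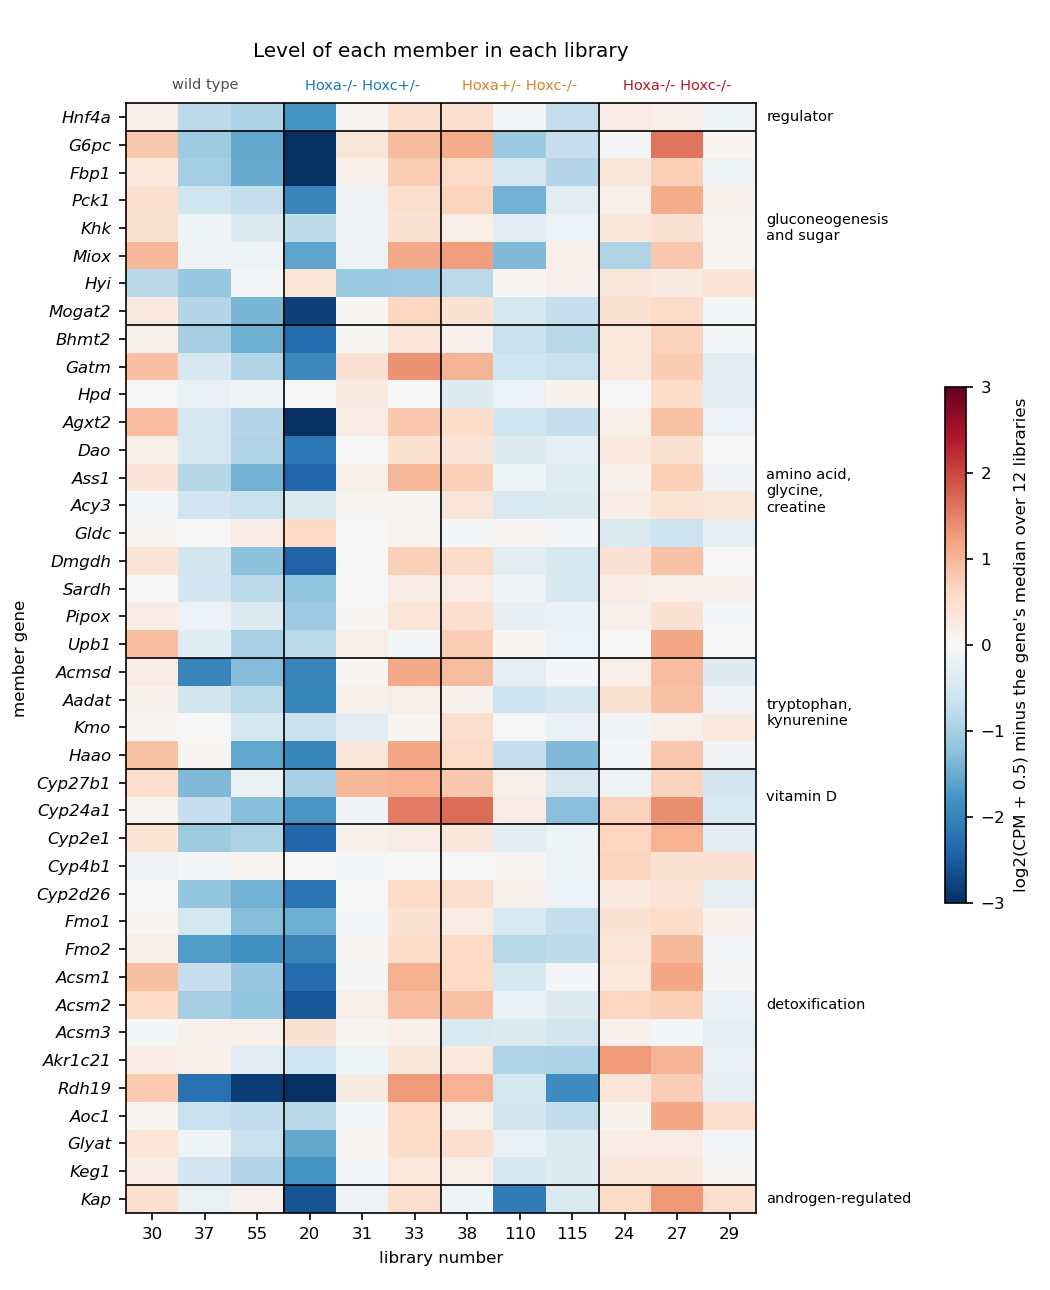
Level of each of the 40 members (rows, ordered by pathway) in each of the 12 libraries (columns, grouped by genotype), as log2(CPM + 0.5) minus the median of that gene over the 12 libraries; red is above and blue below the median. Library 20 of the Hoxa-/- Hoxc+/- group was the lowest of the 12 for 31 members, and wild type library 30 was the highest wild type library for 36.

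The 14 other proximal tubule genes followed the median member library by library. Hyi, Gldc, Acsm3 and Cyp4b1 were among the members that did not. Their ratios of Hoxa-/- Hoxc+/- library 33 to library 20 were 0.337, 0.691, 0.810 and 1.02. The 14 genes summed to 4193 CPM in library 33 and to 543 CPM in library 20. The median member stood at 0.23, -0.57 and -0.88 on the log2 scale relative to its own median in wild type libraries 30, 37 and 55, and the median of the other proximal tubule genes at 0.41, -0.63 and -1.06. In Hoxa-/- Hoxc+/- libraries 20, 31 and 33 the medians of the members were -1.86, 0.04 and 0.52. In Hoxa+/- Hoxc-/- libraries AhCk_38, AhCk_110 and AhCk_115 they were 0.50, -0.39 and -0.43. The double mutant libraries 24, 27 and 29 had member medians of 0.30, 0.70 and -0.06. The 3 double mutant libraries thus exceeded wild type libraries 37 and 55 but overlapped library 30. Genes of nephron progenitors ran the other way in library 20: Six2, a factor that keeps progenitors in that state, stood at 164 CPM there and at 13.2 to 105 CPM in the other 11 libraries. The 5 progenitor genes summed to 409 CPM in library 20, to 181, 240 and 265 CPM in wild type libraries 30, 37 and 55, and to 52.0 to 154 CPM in double mutant kidneys. Podocyte genes, at 561 CPM in library 20 against 1040 to 1720 CPM elsewhere, and loop of Henle genes, at 558 CPM against 746 to 1837 CPM were also lowest there, whereas distal tubule genes, at 209 CPM against 143 to 325 CPM, and collecting duct genes, at 470 CPM against 386 to 555 CPM, lay within the range of the other libraries. The part of these cell types in the levels of the members was not tested.

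**Figure D2:**
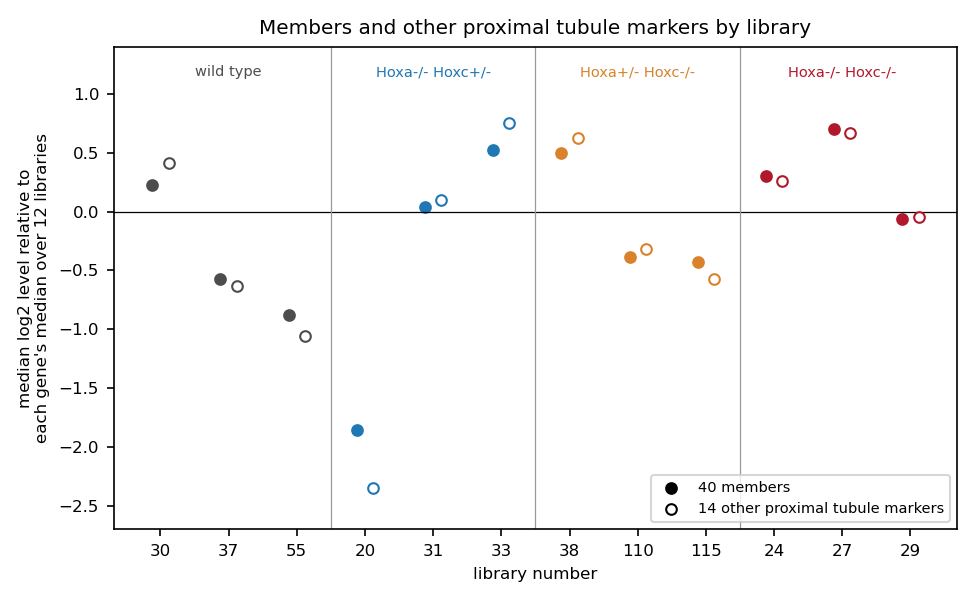
Median log2 level of the 40 members (filled) and of 14 other proximal tubule markers (open) in each library, relative to the median of each gene over the 12 libraries; the horizontal axis gives the library number, grouped and coloured by genotype. Filled and open points moved together, from -1.86 and -2.35 in Hoxa-/- Hoxc+/- library 20 to 0.70 and 0.67 in double mutant library 27.

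The comparison of double mutant with wild type kidneys asks which genes differ when both sets of Hox genes are mutated. One member rose and one fell (edgeR quasi-likelihood test, adjusted over all genes tested at 0.05). Acy3, an aminoacylase that removes acetyl groups from conjugated amino acids, was 1.66-fold higher, and Gldc, the decarboxylating subunit of the glycine cleavage system, was lower at 0.690 of the wild type level. Across all 15839 genes tested, 6.31% were called higher and 7.40% lower, so 1 of 39 in each direction is not above the background. An unadjusted p under 0.05 was found for 33.3% of the members and 32.4% of all genes tested. The fitted log2 fold change was positive for 36 of 39 members, with a median of 0.70 against -0.01 over all genes tested, and the members share their libraries and move together, so these are not independent observations. The study lists Rdh19, Fmo2, Acmsd, G6pc, Bhmt2, Hyi, Fbp1, Aoc1, Mogat2 and Cyp2d26 as higher in mutants, from these same data. The members were chosen with earlier results of these data known, so the signs and the median are no independent support for a rise. The 3 double mutant libraries lay above all 3 wild type libraries for 6 of 39 members (Fmo1, Sardh, Cyp4b1, Hyi, Aoc1 and Acy3), against 17.3% of all genes, and below them for 1 (Gldc), against 20.8% of all genes.

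Wild type library 30 bore on these counts. Without it 24 of 39 members were called higher, against 12.2% of all genes tested, and 1 lower, against 8.89% of all genes, with a median log2 fold change of 1.06. Library 30 was the highest wild type library for 36 of 40 members, so that its removal raises the fold change of those members by construction. Its removal also narrows their wild type range. Calls made without library 30, here and for single genes below, are therefore no support for a rise. Leaving out any one of the other 5 libraries gave 0 to 2 members higher and 0 or 1 lower, with medians of 0.44 to 0.84. Acy3 passed in none of these 5 fits, with edgeR adjusted p-values from 0.0589 to 0.103. The members called higher in them were Hyi without wild type library 55, and Cyp24a1 and Akr1c21 without double mutant library 29. With the level of the 14 proximal tubule genes as a covariate in a fit of all 12 libraries, an alternative chosen after the data were seen, 9 of 39 members were called higher, against 9.42% of all genes tested, and 1 lower, against 10.7% of all genes. Neither Acy3 nor Gldc passed with all 12 libraries in the fit without that covariate, whether or not Xist was one. The 9 members were Fmo1, Fmo2, Sardh, Cyp4b1, Hyi, Aoc1, Bhmt2, Cyp2d26 and Acy3, the one called lower was Gldc, and the median log2 fold change of the members in that fit was 0.24.

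**Figure D3:**
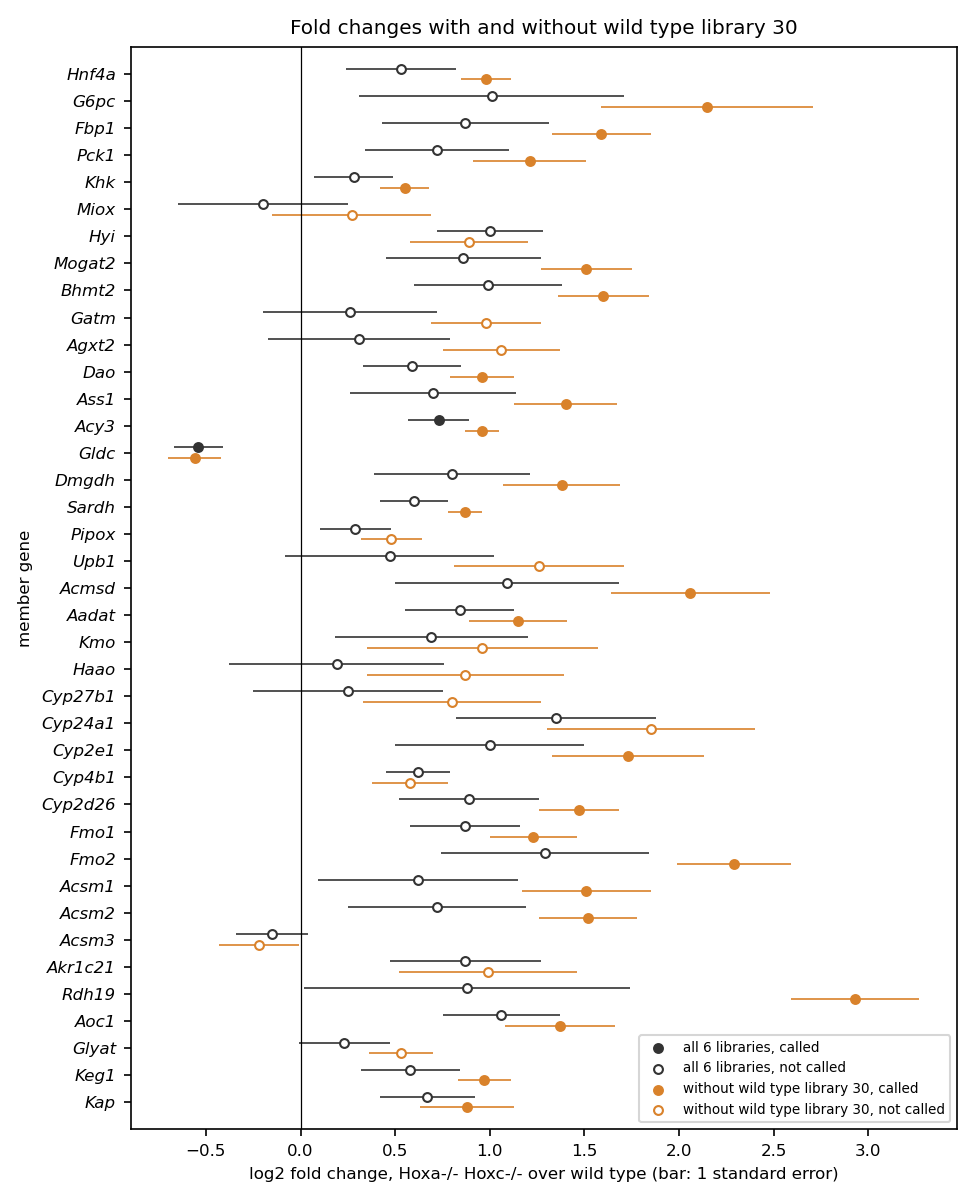
Log2 fold change of each tested member in double mutant over wild type kidneys, with 1 standard error, from all 6 libraries (dark) and without wild type library 30 (orange); filled points passed the test at an adjusted p of 0.05. With all 6 libraries Acy3 and Gldc passed, and without library 30 the members called higher numbered 24.

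Hnf4a, the nuclear receptor, did not pass the test in any of the 4 comparisons. Its level was 290, 147 and 130 CPM in wild type libraries 30, 37 and 55. It was 72.3, 262 and 353 CPM in Hoxa-/- Hoxc+/- libraries 20, 31 and 33, and 351, 242 and 154 CPM in Hoxa+/- Hoxc-/- libraries AhCk_38, AhCk_110 and AhCk_115. In double mutant libraries 24, 27 and 29 it was 300, 291 and 228 CPM. Wild type libraries 37 and 55 lay below all double mutant libraries while library 30 lay within their range, and the log2 fold change was 0.53 ± 0.29 (SE, edgeR adjusted p = 0.237). Without library 30 it was 0.98, with an edgeR adjusted p of 0.00790. Leaving out the highest wild type library favours such a value by construction. Of 7 other regulators of tubule metabolism, Ppara and Ppargc1a among them, none was called in the 4 comparisons, and 1, Esrrg, had an unadjusted p under 0.05 in double mutant against wild type kidneys. There, 6.31% of all genes tested were called higher and 7.40% lower.

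Among the 7 genes of gluconeogenesis and sugar metabolism, Mogat2 included, none was called in double mutant kidneys, against 6.31% of all genes tested called higher and 7.40% lower. The fitted log2 fold changes ran from -0.20 for Miox, the inositol oxygenase, to 1.01 for G6pc, with a median of 0.86, the value of Mogat2. Fbp1 stood at 350, 139 and 99.1 CPM in wild type libraries 30, 37 and 55, and at 358, 459 and 255 CPM in double mutant libraries 24, 27 and 29. The groups overlapped through wild type library 30, and the log2 fold change was 0.87 ± 0.44 (SE, edgeR adjusted p = 0.217). Over 14 alternatives it ran from 0.19 to 1.59, and it passed only without library 30 (1.59, adjusted p = 0.0113). In the reciprocal genotypes Fbp1 was 20.4, 311 and 473 CPM in Hoxa-/- Hoxc+/- libraries 20, 31 and 33, and 419, 200 and 154 CPM in Hoxa+/- Hoxc-/- libraries AhCk_38, AhCk_110 and AhCk_115. The Hoxa-/- Hoxc+/- group spanned the range of the wild type group, and the Hoxa+/- Hoxc-/- group overlapped it. Mogat2, a monoacylglycerol acyltransferase, was 25.0, 10.9 and 7.50 CPM in the wild type and 28.0, 30.7 and 19.8 CPM in the double mutant libraries in the same order, 2.47, 20.9 and 32.3 CPM in the Hoxa-/- Hoxc+/- and 27.8, 13.9 and 12.4 CPM in the Hoxa+/- Hoxc-/- libraries. Its log2 fold change in double mutant kidneys was 0.86 ± 0.41 (SE, edgeR adjusted p = 0.186), and it too passed only without library 30 (1.51, adjusted p = 0.0107), with a range of 0.34 to 1.51. The remaining members of the group were G6pc, from 0.927 to 36.9 CPM over the 12 libraries, Pck1, the cytosolic carboxykinase that starts gluconeogenesis, from 44.3 to 385 CPM, Khk, the ketohexokinase of fructose use, from 17.7 to 41.6 CPM, and Miox, from 12.4 to 91.3 CPM.

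Hyi, a hydroxypyruvate isomerase, did not follow the other sugar genes. It was 4.48, 3.53 and 7.92 CPM in wild type libraries 30, 37 and 55, and 10.7, 10.1 and 11.0 CPM in double mutant libraries 24, 27 and 29. Hoxa-/- Hoxc+/- libraries 20, 31 and 33 gave 10.8, 3.55 and 3.64 CPM, and Hoxa+/- Hoxc-/- libraries AhCk_38, AhCk_110 and AhCk_115 gave 4.58, 8.76 and 9.23 CPM. Library 20, the lowest library for 31 members, was thus among the highest for Hyi. The double mutant libraries lay above all wild type libraries without overlap, with a log2 fold change of 1.00 ± 0.28 (SE, edgeR adjusted p = 0.0520). The adjusted p was 0.0461 with no filter on low counts, 0.00363 by DESeq2, 0.0133 without wild type library 55 and 0.00259 with the proximal tubule genes as a covariate, so the call on Hyi turned on the tool, the filter, a single library and that covariate. Against Hoxa-/- Hoxc+/- kidneys it was not called (log2 fold change 0.85 ± 0.45 SE, edgeR adjusted p = 0.530), and without library 20 it was (1.58 ± 0.14 SE, adjusted p = 0.0112), as the only member, against 2.43% of all genes called higher in that fit. Library 20, at 10.8 CPM, was the only library of that group at the double mutant level. The call without it thus follows from the library left out and is no support for a difference. Over 14 alternatives of this comparison Hyi ran from 0.57 to 1.58, with adjusted p-values from 0.00545 to 0.949, of which 2 passed.

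The other genes of glucose and fructose metabolism gave a like picture. Of 12 listed, 11 were tested in double mutant against wild type kidneys and none was called, against 6.31% of all genes tested called higher and 7.40% lower. All 11 fitted log2 fold changes lay between 0.06 and 0.70, with a median of 0.46.

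Of the 12 genes of amino acid, glycine and creatine metabolism, 11 were tested and 2 were called in double mutant kidneys, 1 higher and 1 lower, against 6.31% of all genes tested called higher and 7.40% lower. Acy3 was 79.1, 54.1 and 50.4 CPM in wild type libraries 30, 37 and 55, and 93.7, 108 and 102 CPM in double mutant libraries 24, 27 and 29. It was 60.0, 85.3 and 82.3 CPM in Hoxa-/- Hoxc+/- libraries 20, 31 and 33, and 104, 58.3 and 60.3 CPM in Hoxa+/- Hoxc-/- libraries AhCk_38, AhCk_110 and AhCk_115. All 3 double mutant libraries exceeded all wild type and all Hoxa-/- Hoxc+/- libraries. The log2 fold change over wild type was 0.73 ± 0.16 (SE, edgeR adjusted p = 0.0290), and over 14 alternatives it ran from 0.59 to 0.96 with adjusted p-values from 3.4e-04 to 0.174, of which 6 passed. Acy3 (Entrez 71670) lies at chr19:3986570-3990007 and Gldc (Entrez 104174) at chr19:30098441-30175441 of GRCm38.p6.

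Gldc showed the opposite direction and a small spread. Its level was 21.1, 20.3 and 24.4 CPM in the wild type libraries, 15.2, 13.3 and 17.0 CPM in the double mutant libraries, 31.5, 20.9 and 21.8 CPM in the Hoxa-/- Hoxc+/- libraries and 19.9, 21.8 and 19.7 CPM in the Hoxa+/- Hoxc-/- libraries, in the order of the labels given above. Each double mutant library was below every library of the other 3 genotypes. Against wild type the log2 fold change was -0.54 ± 0.13 (SE, edgeR adjusted p = 0.0319), and over 14 alternatives it ran from -0.63 to -0.43 with adjusted p-values from 0.00321 to 0.169, of which 7 passed. Against Hoxa-/- Hoxc+/- kidneys it was -0.69 ± 0.21 (SE, edgeR adjusted p = 0.326), which did not pass. It passed in 3 of 14 alternatives, with an edgeR adjusted p of 0.0431 with all 12 libraries in the fit, 0.0392 with Xist as a covariate there and 0.00747 with the proximal tubule genes as one.

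Sardh, the mitochondrial sarcosine dehydrogenase, was 158, 106 and 91.4 CPM in the wild type libraries and 185, 182 and 173 CPM in the double mutant libraries. It was 69.6, 160 and 187 CPM in the Hoxa-/- Hoxc+/- libraries and 190, 147 and 114 CPM in the Hoxa+/- Hoxc-/- libraries. The double mutant libraries lay above the wild type libraries by a log2 fold change of 0.60 ± 0.18 (SE, edgeR adjusted p = 0.0681), which passed in 3 of 14 alternatives, with an adjusted p of 0.00829 by DESeq2, 0.00432 without library 30 and 0.0136 with the proximal tubule genes as a covariate. The other members of this group were not called and had fitted log2 fold changes between 0.26 for Gatm, which makes the creatine precursor guanidinoacetate, and 0.99 for Bhmt2. Their levels over the 12 libraries ran from 38.7 to 379 CPM for Gatm, from 59.5 to 627 CPM for Ass1, the argininosuccinate synthase, from 15.4 to 98.6 CPM for Dao, the D-amino acid oxidase, from 1.89 to 35.5 CPM for Agxt2, from 11.5 to 35.9 CPM for Pipox and from 2.08 to 10.7 CPM for Upb1, which acts in pyrimidine breakdown.

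Of 26 other genes of amino acid metabolism, 25 were tested and 3 rose in double mutant kidneys, where 6.31% of all genes tested were called higher. Among the 3 called, the largest changes were those of Ddc, the aromatic amino acid decarboxylase, with a log2 fold change of 0.88 ± 0.23 (SE, edgeR adjusted p = 0.0447), and Glul, the glutamine synthetase, with 0.57 ± 0.11 (adjusted p = 0.0195). The third was Gamt, which completes creatine synthesis from the product of Gatm, at 11.8 ± 0.634 CPM in double mutant and 8.35 ± 0.918 CPM in wild type kidneys (SD, n = 3; edgeR log2 fold change 0.50, adjusted p = 0.0400). None fell.

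The 4 genes of the tryptophan and kynurenine pathway all had positive fitted log2 fold changes in double mutant kidneys, from 0.19 to 1.09. None was called, against 6.31% of all genes tested called higher and 7.40% lower. Aadat was 321, 205 and 171 CPM in the wild type and 414, 553 and 279 CPM in the double mutant libraries, and 76.2, 325 and 337 CPM in the Hoxa-/- Hoxc+/- and 324, 193 and 216 CPM in the Hoxa+/- Hoxc-/- libraries. Its log2 fold change in double mutant kidneys was 0.84 ± 0.29 (SE, edgeR adjusted p = 0.0944), with wild type library 30 inside the range of the double mutants. Acmsd, the decarboxylase that diverts the pathway from NAD synthesis, was 19.2, 3.71 and 6.26 CPM in the wild type and 18.6, 31.2 and 12.3 CPM in the double mutant libraries. In the Hoxa-/- Hoxc+/- libraries it was 3.63, 16.7 and 36.5 CPM and in the Hoxa+/- Hoxc-/- libraries 31.4, 13.3 and 15.7 CPM. The log2 fold change of Acmsd was 1.09 ± 0.59 (SE, edgeR adjusted p = 0.234), one of the larger fitted changes with one of the larger errors. Leaving out library 30 was the only one of 14 alternatives in which either passed, Aadat with an adjusted p of 0.0267 and Acmsd at 2.06 with an adjusted p of 0.0195. Kmo was 0.371, 0.346 and 0.0990 CPM in the wild type and 0.313, 0.459 and 0.550 CPM in the double mutant libraries, on 4 to 20 counts per library, and the groups overlapped. In the other genotypes Kmo was 0.0386, 0.193 and 0.396 CPM and 0.734, 0.368 and 0.249 CPM. Haao, a dioxygenase further down the pathway than Kmo, ranged from 1.85 to 19.8 CPM. Of 11 other listed genes of kynurenine and NAD metabolism, 7 were tested and none was called.

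The vitamin D genes encode opposite steps. Cyp27b1 makes the active hormone and was 12.7, 3.14 and 7.40 CPM in wild type libraries 30, 37 and 55, and 7.71, 14.2 and 5.61 CPM in double mutant libraries 24, 27 and 29. It was 4.13, 17.6 and 18.2 CPM in Hoxa-/- Hoxc+/- libraries 20, 31 and 33, and 15.6, 9.66 and 5.91 CPM in Hoxa+/- Hoxc-/- libraries AhCk_38, AhCk_110 and AhCk_115. The groups overlapped in every comparison, and the log2 fold change in double mutant kidneys was 0.25 ± 0.50 (SE, edgeR adjusted p = 0.761).

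Cyp24a1, the hydroxylase that inactivates the hormone, was 6.52, 3.60 and 2.23 CPM in the wild type libraries and 10.2, 16.9 and 4.34 CPM in the double mutant libraries. In the Hoxa-/- Hoxc+/- group it was 1.47, 5.81 and 19.0 CPM and in the Hoxa+/- Hoxc-/- group 20.9, 7.35 and 2.30 CPM. Its log2 fold change of 1.35 ± 0.53 (SE, edgeR adjusted p = 0.122) was the largest of the 39 tested members in double mutant kidneys and did not pass the test. The fitted values against wild type were 1.10 ± 0.87 in Hoxa-/- Hoxc+/- and 1.31 ± 0.74 in Hoxa+/- Hoxc-/- kidneys (SE), neither of which passed, and the 3 comparisons share the wild type libraries. Without library AhCk_38 the latter was 0.23, and without library 33 the former was -0.16. The double mutant value passed without library 29 only (1.72, edgeR adjusted p = 0.0498), of 14 alternatives, and was 0.83 without library 27. Of 8 other genes of vitamin D uptake, transport and response, Rxra, the partner receptor of the vitamin D receptor, rose in double mutant kidneys, from 102 ± 9.36 to 148 ± 1.32 CPM (SD, n = 3; edgeR log2 fold change 0.54, adjusted p = 0.00757), and none fell. Over all genes tested 6.31% were called higher, so that 1 of 8 is no result about this list.

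**Figure D4:**
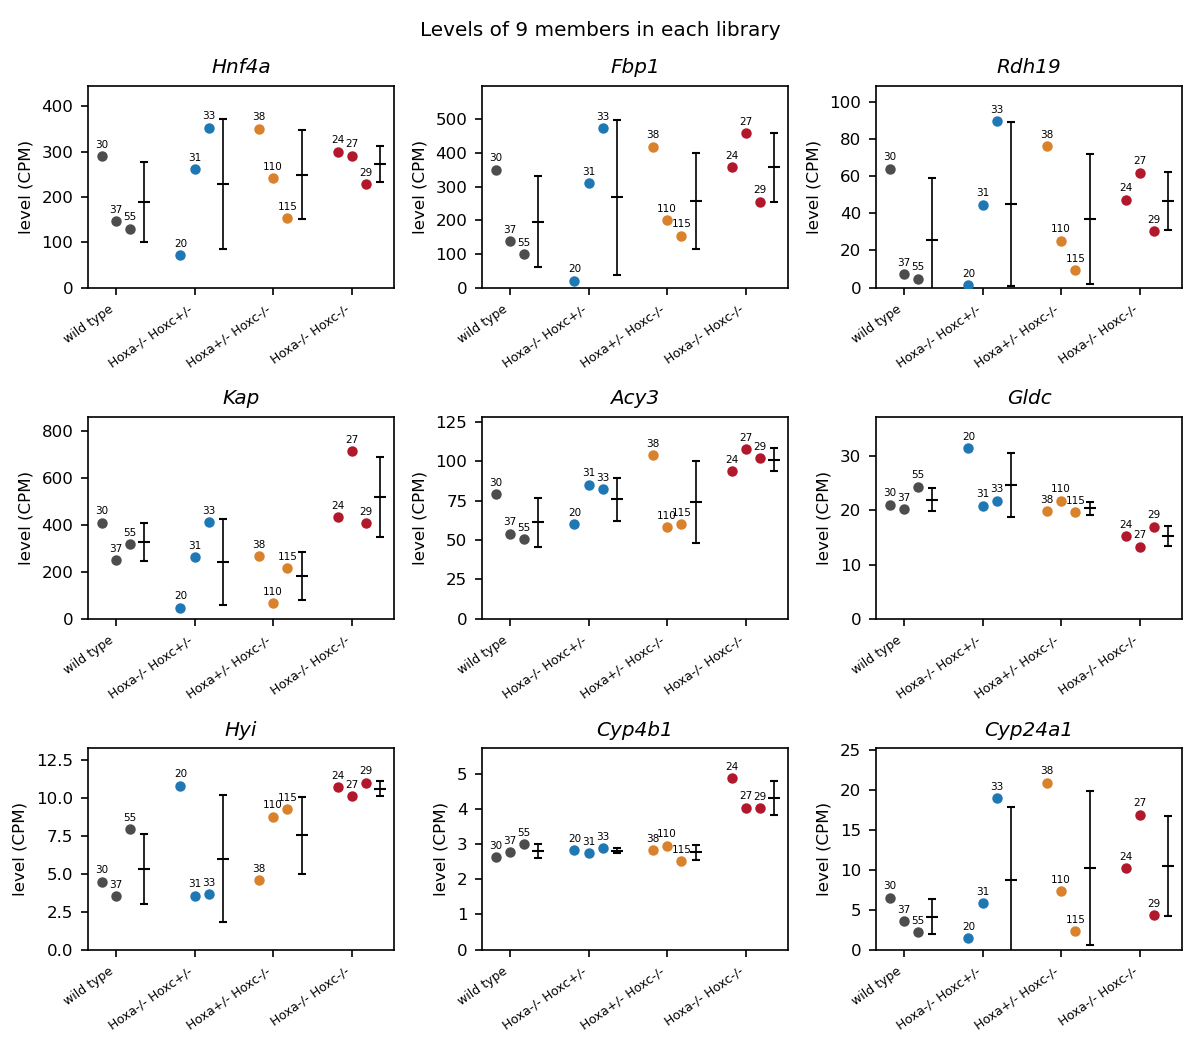
Levels in CPM of 9 members in each library (points, numbered by library, grouped and coloured by genotype), with the mean and SD of the 3 libraries beside them (bars cut at 0); Fbp1 and Rdh19 stand for the members that move together. The double mutant libraries lie above every other library for Cyp4b1, with 4.01 to 4.86 CPM, and below every other library for Gldc, with 13.3 to 17.0 CPM.

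None of the 13 detoxification genes was called in double mutant kidneys, against 6.31% of all genes tested called higher and 7.40% lower. Of their fitted log2 fold changes 12 of 13 were positive, with a median of 0.87. Cyp4b1, a fatty acid and xenobiotic hydroxylase, was 2.63, 2.77 and 2.99 CPM in the wild type, 2.82, 2.73 and 2.88 CPM in the Hoxa-/- Hoxc+/-, 2.82, 2.95 and 2.51 CPM in the Hoxa+/- Hoxc-/- and 4.86, 4.03 and 4.01 CPM in the double mutant libraries. The 9 libraries of the other genotypes thus spanned 2.51 to 2.99 CPM and all 3 double mutant libraries lay above them, though the level was low. Its log2 fold change over wild type was 0.62 ± 0.17 (SE, edgeR adjusted p = 0.0506), just short of the threshold, and the adjusted p was 0.0486 with another scaling of the libraries, 0.0176 by DESeq2 and 0.0332 with all 12 libraries in the fit. It passed in 4 of 14 alternatives, over which the adjusted p ran from 0.0176 to 0.155. Against Hoxa-/- Hoxc+/- kidneys it was 0.63 ± 0.20 (SE, edgeR adjusted p = 0.338), and it passed in 1 of 14 alternatives. Cyp4b1 stood at about the same level in library 20 as in library 33 of that group, with a ratio of 1.02, unlike most members.

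Aoc1, the diamine oxidase that degrades histamine and putrescine, was 40.2, 24.1 and 22.9 CPM in the wild type and 41.4, 86.3 and 53.6 CPM in the double mutant libraries, without overlap. It was 21.2, 36.7 and 58.7 CPM in the Hoxa-/- Hoxc+/- and 43.6, 25.9 and 22.9 CPM in the Hoxa+/- Hoxc-/- libraries. Its log2 fold change in double mutant kidneys was 1.06 ± 0.31 (SE, edgeR adjusted p = 0.0578). It passed in 3 of 14 alternatives, with an adjusted p of 0.0485 with no filter on low counts, 0.0217 without library 30 and 0.0150 with the proximal tubule genes as a covariate. Fmo1, the flavin monooxygenase of the adult mouse kidney, was 150, 101 and 59.5 CPM in the wild type and 195, 213 and 158 CPM in the double mutant libraries, also without overlap. It was 52.7, 141 and 195 CPM in the Hoxa-/- Hoxc+/- and 171, 105 and 88.7 CPM in the Hoxa+/- Hoxc-/- libraries. The log2 fold change of Fmo1 was 0.87 ± 0.29 (SE, edgeR adjusted p = 0.0881), and its neighbour Fmo2, from 10.0 to 82.2 CPM over the 12 libraries, had 1.29 ± 0.55 (adjusted p = 0.151). Both passed in 2 of 14 alternatives, without library 30 (1.23 for Fmo1 and 2.29 for Fmo2) and with the proximal tubule genes as a covariate (0.55 and 0.89).

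The medium-chain acyl-CoA synthetases of the Acsm cluster differed among themselves. Acsm1 ranged from 8.42 to 99.1 CPM and Acsm2 from 21.2 to 243 CPM over the 12 libraries, both lowest in Hoxa-/- Hoxc+/- library 20. Acsm3 ranged only from 2.30 to 4.98 CPM and was highest in that library. Its values were 3.47, 3.94 and 4.08 CPM in the wild type and 2.50, 2.58 and 2.30 CPM in the Hoxa+/- Hoxc-/- libraries. The remaining detoxification genes were the cytochrome P450 enzymes Cyp2e1, from 0.773 to 12.8 CPM, and Cyp2d26, from 17.5 to 123 CPM, the hydroxysteroid dehydrogenase Akr1c21, from 1.29 to 7.86 CPM, Rdh19, from 1.20 to 89.4 CPM, and the glycine acyltransferase Glyat, at its lowest 10.6 CPM in library 20 and at its highest in library 33, and its relative Keg1, from 51.2 to 228 CPM. Of 24 other detoxification genes, 22 were tested and 2 rose in double mutant kidneys, a share near the 6.31% of all genes tested that were called higher. They were Ugt1a1, the bilirubin glucuronosyltransferase, with a log2 fold change of 1.53 ± 0.32 (SE, edgeR adjusted p = 0.0243), and Dpyd, which starts pyrimidine breakdown, with 0.81 ± 0.17 (adjusted p = 0.0219). The exons of Ugt1a1 are in part shared with other genes of its family, so its count is uncertain.

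Kap, an androgen-regulated protein of the mouse proximal tubule, was 411, 249 and 318 CPM in wild type libraries 30, 37 and 55, and 435, 716 and 408 CPM in double mutant libraries 24, 27 and 29. It was 47.7, 262 and 412 CPM in Hoxa-/- Hoxc+/- libraries 20, 31 and 33, and 268, 67.7 and 215 CPM in Hoxa+/- Hoxc-/- libraries AhCk_38, AhCk_110 and AhCk_115. Wild type library 30 lay just above the lowest double mutant library, and the log2 fold change was 0.67 ± 0.25 (SE, edgeR adjusted p = 0.111). It passed in 2 of 14 alternatives, by DESeq2 (adjusted p = 0.0213) and without library 30 (0.88, adjusted p = 0.0488). In the fit of 12 libraries the log2 fold change was 0.44 with Xist as a covariate (adjusted p = 0.820) and 0.10 with the proximal tubule genes as one (adjusted p = 0.888). Double mutant libraries 27 and 29 held Xist at 72.6 and 60.1 CPM while no wild type library did, so that sex and genotype are partly confounded, and the part of sex in the level of Kap was not tested beyond that fit.

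In Hoxa-/- Hoxc+/- against wild type kidneys none of the 39 tested members was called by edgeR or by DESeq2, and none had an unadjusted p under 0.05. Of 15789 genes tested, 0% were called by edgeR, 360 had an unadjusted p under 0.05 and DESeq2 called 22. The median log2 fold change of the members was 0.23 against 0.03 over all genes. Without library 20 it was 0.59, without wild type library 30 it was 0.71 and without library 33 it was -0.29. In the fit of all 12 libraries it was -0.22 with Xist as a covariate and -0.03 with the level of the proximal tubule genes as a covariate, so its sign turned on library 33 and on either covariate. Leaving out each library in turn brought no member past the threshold.

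In Hoxa+/- Hoxc-/- against wild type kidneys, which differ in sequencing run as well as in genotype, none of the 39 members was called by edgeR, against 2.36% of all 15902 genes. The members with an unadjusted p under 0.05 were Acsm3 and Cyp2d26. The share of all genes at that level is not given here, so this is no result about the members. Acsm3 had a log2 fold change of -0.63 ± 0.16 (SE, edgeR adjusted p = 0.0847), with its 3 Hoxa+/- Hoxc-/- libraries below all wild type libraries, as for 15.3% of all genes tested, and DESeq2 called it with an adjusted p of 0.0329. Cyp2d26 had 0.92 ± 0.38 (SE, edgeR adjusted p = 0.224) and passed in 2 of 13 alternatives. These were without wild type library 30 (1.49, edgeR adjusted p = 0.0273) and with the proximal tubule genes as a covariate (0.76, adjusted p = 0.00527). The median log2 fold change of the members was 0.24 against 0.01 over all genes. It was 0.64 without wild type library 30, -0.01 without wild type library 55 and -0.13 without library AhCk_38.

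In double mutant against Hoxa-/- Hoxc+/- kidneys, which by the labels differ in the Hoxc alleles, none of the 39 members was called by edgeR or by DESeq2, and 3 had an unadjusted p under 0.05 (Gldc, Cyp4b1 and Acy3). Of 15764 genes tested 0% were called by edgeR, 1787 had an unadjusted p under 0.05 and DESeq2 called 555. Cyp4b1 and Acy3 lay above all Hoxa-/- Hoxc+/- libraries, as did 9.95% of all genes tested, and Gldc below them, as did 13.1%. The log2 fold change of Acy3 was 0.44 ± 0.16 (SE, edgeR adjusted p = 0.399). The median of the members was 0.44 against -0.01 over all genes. It fell to 0.02 without library 20 and to 0.23 without double mutant library 27. Without Hoxa-/- Hoxc+/- library 33 it rose to 0.96. Both this comparison and that with wild type use the double mutant libraries, so their values for Gldc, Cyp4b1 and Acy3 are not independent.

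Markers of other cell types moved between the groups beside the members. Of the 6 stromal genes, all 6 were called higher in double mutant against wild type kidneys, with a summed level of 7659 to 9377 CPM against 2610 to 2788 CPM. In the Hoxa-/- Hoxc+/- group the sum was 2934 to 3912 CPM and in the Hoxa+/- Hoxc-/- group 3472 to 4733 CPM. Of the 5 progenitor genes 3 were called lower and of the 5 podocyte genes 4 were called higher, while none of the 14 proximal tubule genes was called, against 6.31% of all genes tested called higher and 7.40% lower. Many of the members are also liver enzymes. Of 10 liver genes 9 were tested and 4 were called higher, with a summed level of 17.8 to 24.2 CPM in wild type, 22.1 to 78.4 CPM in Hoxa-/- Hoxc+/-, 25.2 to 76.5 CPM in Hoxa+/- Hoxc-/- and 37.6 to 72.3 CPM in double mutant kidneys, and no liver gene was at 0 throughout a group. The sum was 78.4 CPM, with albumin at 21.4 CPM, in library 20, in which 31 members were lowest. It was 72.3 CPM, with albumin at 15.9 CPM, in double mutant library 27, in which 14 members were highest, and 22.1 CPM, with albumin at 0.369 CPM, in library 33, in which 13 members were highest. The part of stromal, progenitor and liver RNA in the results on the members was not tested.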

How the data were processed

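Whole E18.5 kidneys were sequenced as paired-end libraries. Per the study's methods the authors used Strand NGS and mm10 alignments, and took out multiply aligning reads in their own analysis. Whether this preceded the deposited table is not given in the sources used here. The deposited values used here are estimated counts per gene, with fractions and not normalized, summing to 28616878 to 47067926 per library. The 12 deposited columns of normalized log2 values were not used.

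Counts were rounded to whole numbers. Each of 4 comparisons was fitted on its own 6 libraries with edgeR 4.0.16 (R 4.3.3): TMM scaling, filterByExpr with its default minimum count of 10, quasi-likelihood test, two-sided, Benjamini-Hochberg adjustment over all genes tested, threshold 0.05. Fold changes come from these fits, SE from the fold change and its F statistic, and printed levels are CPM with TMM scaling over all 12 libraries, with a pseudocount of 0.5 where a log2 level is given. Exon lengths come from GENCODE M21, and a level below 3 counts was taken as not detectable, which covers counting error only. The study's own test, by which it lists some members as higher in its mutants, has no term for replicate spread and was not used. The script was tested on simulated data. Alternatives were DESeq2 1.42.0, other scalings, no filter, fits of all libraries or of one run, Xist as a covariate and each library left out.

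The members, pathway lists and marker lists were chosen with earlier results of these data known. All 40 members are named. Values in every library are given for Hnf4a, Cyp27b1, Cyp24a1 and Kap and, in each pathway, for up to 3 members with the smallest p in double mutant against wild type kidneys and any member called. The values given for Bhmt2, Dmgdh and Acsm3, in some of the genotypes, were added after they were seen. Pathway genes are named where they pass, with the 2 largest changes in each direction. One gene of these lists is not reported here.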

Additional observations from a re-analysis of the deposited data

How the results depend on the processing

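No paired analysis was possible because the replicate numbers of the labels are not shared between the genotypes. Depth is least for Hpd and Kmo, and other members rest on more than 3 counts in every library. In double mutant against wild type kidneys the 1 member higher and 1 lower became, among members higher, 2 with RLE size factors, 3 with no filter on low counts, 5 by DESeq2, 0 with Xist as a covariate, 0 in the 9 libraries of one run and 9 with proximal tubule markers as a covariate. Members lower were 0 with all 12 libraries, with Xist and in the 9 libraries. Leaving out single libraries gave 0 to 24 members higher, 0 to 1 lower and 535 to 3386 genes called in all, against 2171. All genes called were 3371 by DESeq2, 1190 with all 12 libraries, 984 with Xist, 690 in the 9 libraries and 3265 with the marker covariate. In Hoxa-/- Hoxc+/- against wild type kidneys all genes called were 22 by DESeq2, 2 with all 12 libraries, 6 with the marker covariate and 0 to 8 with single libraries left out, against 0. In Hoxa+/- Hoxc-/- against wild type kidneys 376 genes became 1309 by DESeq2, 149 with all 12 libraries, 124 with Xist, 842 with the marker covariate and 60 to 549 with single libraries left out. There, members lower were 1 by DESeq2 and 1 with the marker covariate, and members higher 2 with the latter and 0 to 1 with single libraries left out. In double mutant against Hoxa-/- Hoxc+/- kidneys 0 genes became 1 with no filter, 555 by DESeq2, 540 with all 12 libraries, 646 with Xist, 181 in the 9 libraries, 1844 with the marker covariate and 0 to 687 with single libraries left out. Members lower there were 1 with all 12 libraries, 1 with Xist and 2 with the marker covariate, and members higher 4 with the latter and 0 to 1 with single libraries left out. The cause of these shifts was not tested.

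Alternatives were run for all 39 tested members in double mutant against wild type kidneys, and in the other comparisons only for 4 to 8 members that the text describes there. Among these values none of the calls reversed, and uncalled log2 fold changes changed sign as follows. In double mutant against wild type kidneys Gatm was -0.01 and Agxt2 -0.17 with Xist, Cyp27b1 -0.16 and Haao -0.29. With the marker covariate Gatm was -0.28, Agxt2 -0.32, Pipox -0.00, Cyp27b1 -0.22, Haao -0.36 and Glyat -0.12. With single libraries left out the ranges were -0.70 to 0.27 for Miox, -0.21 to 0.80 for Cyp27b1, -0.05 to 0.98 for Gatm, -0.05 to 1.06 for Agxt2, -0.25 to 0.87 for Haao and -0.07 to 1.26 for Upb1. In Hoxa-/- Hoxc+/- against wild type kidneys Hnf4a was -0.22 with Xist, and with single libraries left out Kap ran from -1.07 to 0.04, Hnf4a from -0.18 to 0.73 and Cyp24a1 from -0.16 to 1.59. In double mutant against Hoxa-/- Hoxc+/- kidneys Cyp24a1 was -0.04 with the marker covariate, and with single libraries left out Hnf4a ran from -0.14 to 0.72 and Cyp24a1 from -0.25 to 1.52.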
